A study of Bos taurus with 27 samples.

Results

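The genes examined here encode the heat shock proteins of the bovine rumen epithelium (RE) and the transcription factors HSF1 and HSF2. They were chosen by name, as all non-control probes of the array whose gene name starts with HSPA, HSPB, HSPD, HSPE, HSPH, HSP90 or DNAJ or equals HSF1 or HSF2. This rule found 30 genes, each with 1 probe, among 14952 gene names. It found no DNAJ gene, and the DNAJ cochaperones are not analysed here. HSPBP1 and HSPBAP1 carry the prefix but are partners of chaperones rather than heat shock proteins, and HSPB11 has the current symbol IFT25, a protein of ciliary transport.

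Biopsies of the RE came from 9 Japanese Black beef cattle that were sampled repeatedly, at an early (14 months of age), a middle (21 months) and a late (29 months) stage of fattening, with 1 array for each of the 27 biopsies. All of the cattle were castrated males with a rumen fistula and ate a high-concentrate diet at every stage. The share of forage and the protein content of the concentrate differed between stages, so age, diet composition and time on the diet cannot be told apart. One protocol label names neutrophils and liver as the source of RNA, whereas the tissue labels give RE. Of 16 markers of stratified epithelium, 15 were well above background on all early-stage arrays, 14 on all middle-stage and 15 on all late-stage arrays, and KRT4 was above it on none. Their summed log2 level was 11.7 to 12.1 at the early, 10.00 to 12.2 (median 11.2) at the middle and 11.8 to 12.2 at the late stage. In the first period 4 were higher and 7 lower, beside 45.3% and 21.2% of all probes. On all 27 arrays 14 of the 16 were well above background, and probes measured as often gave 34.9% and 26.9%. The summed level of 5 red blood cell markers was 6.68 to 7.61 at the middle stage, above every early-stage value (5.27 to 6.07) and late-stage value (5.46 to 6.47), although 3 of the 5 were above background on no middle-stage array. The part of these markers in the changes of the middle stage was not tested.

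Heat shock proteins bind unfolded or partly folded proteins, keep them from aggregating and help them fold, move between compartments or be degraded. HSP70 proteins work in ATP-driven cycles that DNAJ proteins and nucleotide exchange factors control, HSP90 proteins act later on selected clients, the mitochondrial chaperonin folds imported proteins, and small heat shock proteins hold unfolded proteins without ATP. HSF1 is the main transcription factor that raises the inducible members under heat or other stress.

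A level is the log2 processed intensity of a probe relative to the median of its array, so levels of different probes are not compared. The first period stands for the step from the early to the middle stage, the second period for that from the middle to the late stage, and the total period for both steps together. The first and second periods share the middle-stage arrays. Changes are log2 fold changes from a limma fit over all probes with the animal as a block. An animal is the running number in the titles of the arrays, taken to mean the same animal at every stage. Counts of cattle and values of single animals rest on this. A gene was called a differentially expressed gene (DEG) at a Benjamini-Hochberg adjusted *P* below 0.05 over 15008 probes. The bulk biopsies cannot tell fewer cells of a type from less RNA per cell.

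The arrays limit the comparisons in several ways. The median signal of an array was 8.22 to 28.7 at the middle stage, below the 35.2 to 48.6 of the early and the 32.2 to 47.0 of the late stage. The 27 arrays lay on 5 slides, of which only slide 2 held more than 1 stage, with 1 early-stage and 7 middle-stage arrays. Stage and slide therefore cannot be told apart in the second and total periods and only weakly in the first. The median log2 fold change over all probes was 0.33 in the first, −0.28 in the second and 0.03 in the total period. Over 6 other ways of scaling the arrays it ran from −0.61 to 0.39, from −0.46 to 0.67 and from −0.10 to 0.07, so the sign of a small change depends on the scaling.

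The 60-base probes of 5 genes are shown because the changes of HSPA9, HSPA5, HSPA13, HSPA4L and HSPD1 rest on them. Each has a forward frame free of stop codons over its whole length, and no probe of the 30 genes matched another probe of the array. No letter is in capitals, because no part of a probe was examined apart from the rest.
HSPA9: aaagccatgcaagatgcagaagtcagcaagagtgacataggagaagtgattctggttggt
HSPA5: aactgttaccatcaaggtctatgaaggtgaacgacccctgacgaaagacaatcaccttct
HSPA13: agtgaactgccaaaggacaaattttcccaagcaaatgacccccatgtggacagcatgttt
HSPA4L: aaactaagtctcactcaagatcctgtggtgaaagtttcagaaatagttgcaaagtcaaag
HSPD1: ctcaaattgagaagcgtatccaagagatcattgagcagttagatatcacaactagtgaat

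Coordinates are those of the array design, on build bosTau6. The probe of HSPA9 lies at chr7:51511338-51511397 on the minus strand, that of HSPA13 at chr1:22299173-22299232 on the plus strand and that of HSPA4L at chr17:30234750-30234809 on the minus strand. The probe of HSPA5 spans chr11:96116101-96116578 on the minus strand, more than its own length, so it crosses an intron. The probe of HSPB8 lies at chr17:58405902-58405961 on the minus strand. Those of HSPD1, at chr2:86440516-86440575 on the minus strand, and of HSPE1, at chr2:86451470-86451529 on the plus strand, are neighbours on the same chromosome. The file describes the sequence behind the HSPA2 probe as HSPA1A mRNA, but the probe lies at chr10:76994488-76994547 and that of HSPA1A at chr23:27331503-27331562, so the identity of the HSPA2 probe is uncertain.

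Signal was found for most of the genes. On all 27 arrays the probes of 21 genes were well above background, and 25 were so on all 9 arrays of the early and also of the late stage. At the middle stage HSPA14, HSF2 and HSPBAP1 passed this limit on 7 of 9 arrays and HSPB2 on 4. The remaining 5 were HSPA12A and HSPB3, above background on no array, HSPA6, on 2 arrays in all, HSPB9, on 1, and HSPA1L, on 5 early-stage, 2 middle-stage and 3 late-stage arrays. No probe was saturated.

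**Figure D1:**
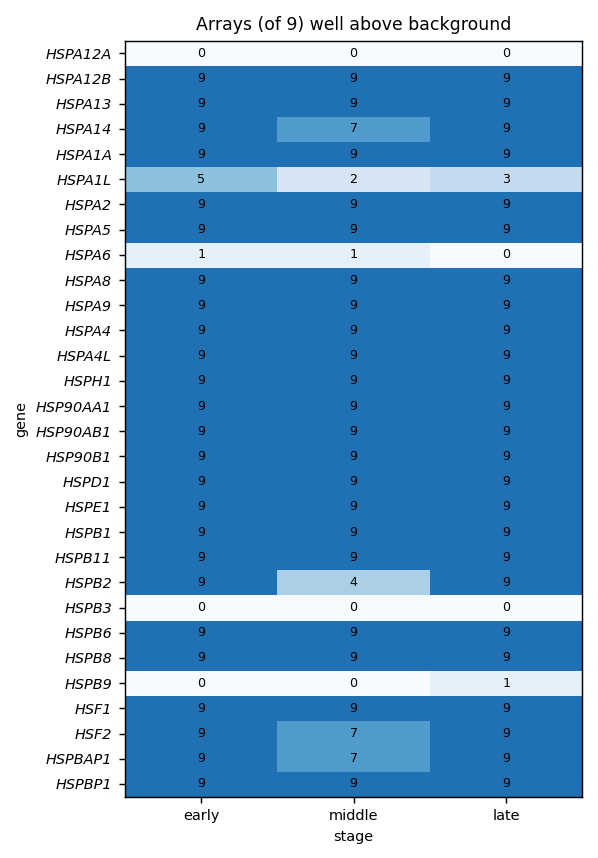
Number of arrays, of 9 at each stage, on which the probe of each of the 30 genes was well above background. Rows are genes, columns are stages and darker cells hold more arrays, 21 genes have 9 in every column, and HSPA12A and HSPB3 have 0.

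During the first period 18 of the 30 genes were DEGs, 12 higher and 6 lower at the middle stage, while 66.5% of all probes were called, 45.3% higher and 21.2% lower. During the second period there were 21, of which 8 rose and 13 fell, against 71.5% of all probes, 26.7% higher and 44.8% lower. Over the total period 4 were DEGs, 2 higher and 2 lower, against 20.0% of all probes, 11.0% higher and 9.01% lower. Nothing particular to the 30 genes is read from these counts. With the slide as a random block none of the 4 total-period genes was called, where 248 of all 15008 probes were. In that fit 3 genes had an unadjusted limma *P* below 0.05. Without slides in the model, the median log2 fold changes of the 30 genes were 0.21, −0.11 and 0.08.

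The probes at background made up part of these counts. HSPA12A, HSPA1L, HSPA6, HSPB3 and HSPB9 were among the 12 called higher in the first period and the 13 called lower in the second, although each was well above background on no more than 5 of the 9 arrays of any stage. Of the 21 genes measured on all 27 arrays, 7 were higher and 5 lower in the first period, where 34.9% and 26.9% of all probes measured as often were called. In the second period 5 were higher and 8 lower, beside 37.4% and 30.7%, and over the total period 1 was higher and 2 were lower, beside 17.6% and 7.99%.

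DEGs with a fold change of at least 2 numbered 7 in the first period, where 31.4% of all probes passed, 23.9% higher and 7.58% lower. HSPA9 and HSPB8 were lower and HSPA4L was higher, and the other 4, all higher, were at background. In the second period 8 genes passed, where 39.1% of all probes did, 9.92% higher and 29.2% lower, with HSPA14 and HSPA9 higher and HSPA12B lower besides 5 at background that were lower. Over the total period 1 gene passed, HSPA12B, which was lower, where 4.16% of all probes did, 1.31% higher and 2.85% lower.

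**Figure D2:**
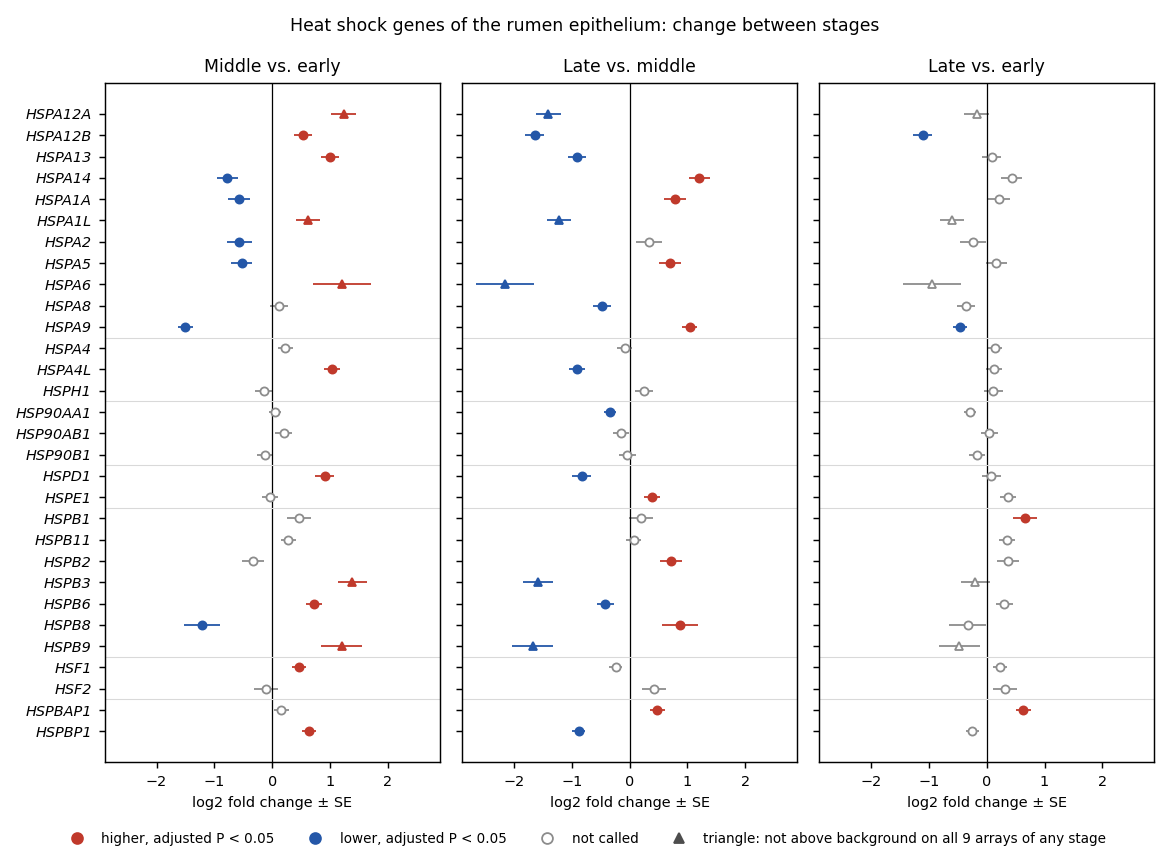
Log2 fold change (points) with its standard error (bars) of the 30 genes in the 3 comparisons, with families separated by grey lines. Colour marks genes with a limma adjusted P below 0.05 and triangles mark genes at background. HSPA9 is at −1.51, 1.04 and −0.46, and signs of many smaller changes turn under other scalings.

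HSPA9 (mortalin), the HSP70 of the mitochondrial matrix that helps pull proteins through the inner membrane, fell the most of the 30 genes in the first period. Its log2 level was 3.31 to 3.92 (median 3.43) at the early stage, 1.22 to 2.57 (median 2.02) at the middle stage and 2.84 to 3.27 (median 3.08) at the late stage, with 9 arrays at each. No value of the middle stage reached those of the other stages, and the late stage stayed below the early one in every animal. HSPA9 changed by −1.51 on the log2 scale (SE 0.13, limma adjusted *P* = 4.72e-08) in the first period, 1.04 (adjusted *P* = 1.19e-06) in the second and −0.46 (adjusted *P* = 0.0155) over the total period. HSPA9 was one of 5 genes whose stages did not overlap in the first period, one of 6 in the second and one of 4 over the total period, where 12.9%, 20.6% and 6.46% of all probes did not overlap. The total-period change was not called under normexp background correction, with −0.22, or without animal 3, with −0.40.

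HSPD1 (HSP60), the large subunit of the mitochondrial chaperonin, moved the other way. Its log2 level was 6.01 to 6.96 (median 6.23) at the early stage, 6.64 to 8.17 (median 7.40) on the 8 middle-stage arrays with a value and 5.87 to 6.98 (median 6.41) at the late stage. The spot of animal 8 at the middle stage was marked as an outlier and left out. The stages overlapped, but HSPD1 was higher at the middle stage in 8 of 8 cattle with both arrays. It rose by 0.91 (SE 0.16, limma adjusted *P* = 1.21e-04) and then changed by −0.83 (adjusted *P* = 1.94e-04), and both calls were lost under normexp, with 0.39 and −0.10.

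HSPE1 (HSP10), the lid of the same chaperonin, had log2 levels of 8.61 to 9.31 (median 8.92), 8.47 to 9.36 (median 8.92) and 8.81 to 9.61 (median 9.37) at the 3 stages. These ranges overlapped widely. Its change was −0.03 (SE 0.14, limma adjusted *P* = 0.834) in the first and 0.40 (adjusted *P* = 0.015) in the second period. The latter call was kept under only 3 of 6 scalings. It was lost under 75th percentile scaling, with 0.22, among others, and without animal 6, with 0.31.

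HSPA5 (BiP), the HSP70 of the endoplasmic reticulum (ER) lumen and a sensor of ER stress, ranged from 4.10 to 5.34 (median 4.91) at the early stage, from 3.45 to 4.82 (median 4.19) at the middle stage and from 4.44 to 5.75 (median 4.79) at the late stage. The stages overlapped, and 2 of 9 cattle were higher at the middle than at the early stage. HSPA5 changed by −0.53 on the log2 scale (SE 0.19, limma adjusted *P* = 0.0174) in the first and 0.70 (adjusted *P* = 0.00254) in the second period. The first was not called without animal 2, with −0.45, or without animal 7, with −0.42.

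HSPA13, a small HSP70 relative of the ER that lacks the substrate-binding domain, was at 0.66 to 1.06 (median 0.94), 1.38 to 2.82 (median 1.88) and 0.73 to 1.20 (median 1.00). All middle-stage values lay above all others. It rose by 0.99 (SE 0.16, limma adjusted *P* = 3.09e-05) and then changed by −0.91 (adjusted *P* = 4.62e-05), with the same direction and call under all 6 scalings. HSP90B1 (GRP94), the HSP90 of the ER, was at 7.72 to 8.44, 6.81 to 8.28 and 7.40 to 8.60 and was not called, with changes of −0.13, −0.04 and −0.17 (SE 0.14 each). The 3 members of the ER thus had values of different sign in the first period.

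Among the cytosolic HSP70 proteins, HSPA1A, the classical stress-inducible form, was at 7.97 to 9.23 (median 8.62) at the early stage, 7.24 to 8.78 (median 7.97) at the middle stage and 8.31 to 9.11 (median 8.74) at the late stage. The ranges overlapped, and animal 9 alone was higher at the middle than at the early stage. HSPA1A changed by −0.57 on the log2 scale (SE 0.19, limma adjusted *P* = 0.0143) in the first and 0.79 (adjusted *P* = 0.00138) in the second period, and the first was not called without animal 4, with −0.47.

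HSPA8 (HSC70), the constitutive counterpart, was at 3.98 to 4.81 (median 4.26), 3.91 to 5.05 (median 4.34) and 3.30 to 4.33 (median 3.90). These stages overlapped too. Its change was 0.12 (SE 0.16, limma adjusted *P* = 0.5) in the first and −0.48 (adjusted *P* = 0.01) in the second period, and the second turned to 0.25 under normexp. The probe named HSPA2 changed by −0.57 (SE 0.22, limma adjusted *P* = 0.0303) in the first period, lower in 8 of 9 cattle, and this was not called when any of animals 2, 3, 4, 6 or 8 was left out, with −0.55 to −0.45.

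HSPA14, a ribosome-associated HSP70, was at 1.12 to 1.48 (median 1.28) at the early stage, −0.65 to 1.45 (median 0.52) at the middle stage and 1.59 to 1.91 (median 1.69) at the late stage. Late-stage values lay above all others, while the middle stage was the most spread. Its lowest values, −0.65 in animal 4 and −0.23 in animal 9, were not well above background. It changed by −0.78 (SE 0.19, limma adjusted *P* = 0.00131) and 1.21 (adjusted *P* = 1.47e-05), with the same calls under all 6 scalings, and by 0.43 (adjusted *P* = 0.113) over the total period.

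HSPA12B, an atypical HSP70 known from endothelial cells, was at −0.80 to 0.59 (median −0.16), −0.65 to 1.10 (median 0.64) and −1.78 to −0.94 (median −1.10). All late-stage values were below all others. The change was 0.53 (SE 0.16, limma adjusted *P* = 0.00738) in the first period, which turned to −0.13 under cyclic loess, −1.64 (adjusted *P* = 7.47e-08) in the second and −1.11 (adjusted *P* = 8.01e-05) over the total period. The latter pair kept direction and call under all 6 scalings, with −1.82 to −0.55 and −1.24 to −0.38. Of 8 endothelium markers 0 were higher and 2 lower in the second period, beside 26.7% and 44.8% of all probes. The same counts held over the total period, beside 11.0% and 9.01%. Their summed log2 level was 5.21 to 6.16, 5.53 to 6.66 and 5.63 to 6.30 at the 3 stages, and their part in the change of HSPA12B was not tested.

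The HSP110 proteins exchange the nucleotide of HSP70. HSPA4L was at 1.01 to 1.88 (median 1.51) at the early stage, 1.98 to 3.33 (median 2.52) at the middle stage and 1.21 to 1.80 (median 1.65) at the late stage. The middle stage lay wholly above the others. It rose by 1.04 (SE 0.14, limma adjusted *P* = 6.43e-06) and then changed by −0.91 (adjusted *P* = 1.36e-05), also under all 6 scalings. HSPA4, with changes of 0.22, −0.08 and 0.14 (SE 0.13 each), and HSPH1, with −0.14, 0.26 and 0.12 (SE 0.16 each), were not called in any comparison.

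Among the cytosolic HSP90 proteins the inducible HSP90AA1 was at 7.54 to 7.84 (median 7.66), 7.21 to 7.93 (median 7.79) and 6.97 to 7.75 (median 7.43). The stages overlapped, although the late-stage value was below the early-stage value in 9 of 9 cattle. It changed by 0.05 (SE 0.10), by −0.33 (limma adjusted *P* = 0.00641), which turned to 0.45 under normexp, and by −0.29 (adjusted *P* = 0.0519). The constitutive HSP90AB1 was not called, with 0.19, −0.15 and 0.05 (SE 0.14 each).

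**Figure D3:**
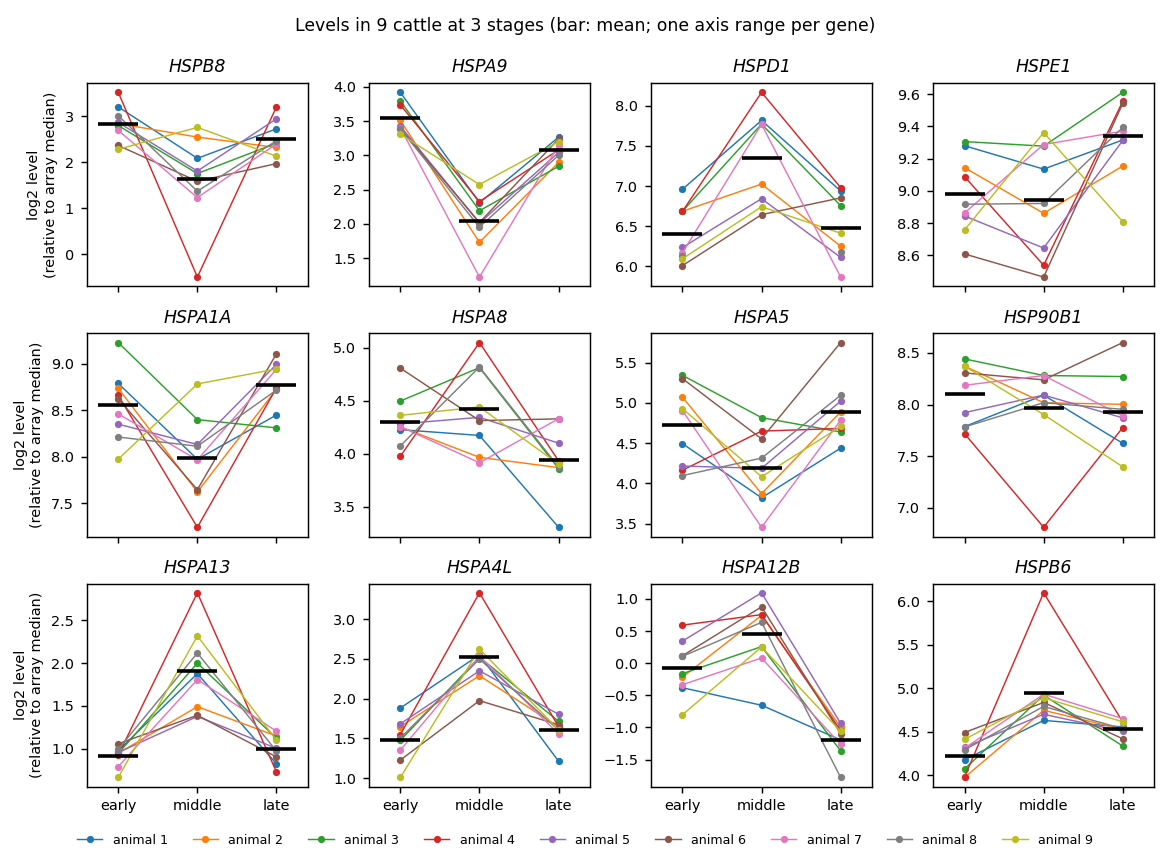
Log2 level of 12 of the genes on each array (vertical axis, relative to the array median) at the 3 stages (horizontal axis), with 1 coloured line per animal and a black bar for the mean. The axis range differs between genes. HSPA9 falls to 1.22 to 2.57 at the middle stage in all cattle, and animal 4 stands apart for HSPB8, at −0.49, and for HSPB6, at 6.10.

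HSPB8, a small heat shock protein that works with BAG3 to send damaged proteins to autophagy, was well above background on all 27 arrays. Its log2 level was 2.28 to 3.52 (median 2.84) at the early stage, −0.49 to 2.76 (median 1.75) at the middle stage and 1.97 to 3.20 (median 2.41) at the late stage. The stages overlapped, and the middle stage held both a low value in animal 4 and a rise in animal 9. HSPB8 was lower at the middle than at the early stage in 8 of 9 cattle, by −1.21 on the log2 scale (SE 0.31, limma adjusted *P* = 0.00232). In the second period it rose by 0.88 (adjusted *P* = 0.0168), by 0.53 without animal 4 and, no longer called, by 0.77 under quantile normalization, and over the total period the change was −0.33 (adjusted *P* = 0.512). In the first period it was −0.78 within slide 2 and 0.61 when slides were a fixed block, neither called.

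HSPB6 (HSP20), abundant in smooth and striated muscle, was at 3.97 to 4.49 (median 4.29), 4.63 to 6.10 (median 4.84) and 4.34 to 4.65 (median 4.53). All middle-stage values lay above the early stage. The change was 0.72 (SE 0.14, limma adjusted *P* = 2.77e-04) in the first period, not called under normexp with 0.22, and −0.42 (adjusted *P* = 0.014) in the second, which turned to 0.31 under normexp. Of 10 smooth muscle markers 6 were higher and 0 lower in the first period, beside 45.3% and 21.2% of all probes. In the second 0 were higher and 9 lower, beside 26.7% and 44.8%. Only 4 of the 10 were well above background on all 27 arrays, so part of these calls rests on dim probes. Their summed log2 level was 6.85 to 8.63, 6.70 to 9.77 and 7.00 to 7.75 at the 3 stages, and their part in the change of HSPB6 was not tested.

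HSPB1 (HSP27), an inducible small heat shock protein of stratified epithelia, was at −0.07 to 0.74 (median 0.38), 0.19 to 1.81 (median 0.68) and −0.55 to 1.57 (median 1.25). It was higher at the late than at the early stage in 8 of 9 cattle, and animal 1 had the low late-stage value. The total-period change of 0.66 (SE 0.20, limma adjusted *P* = 0.0278) was called under only 3 of 6 scalings. The call was lost under 75th percentile scaling, with 0.55, among others, and when any of animals 2 to 8 was left out, with 0.54 to 0.68. HSPB2 rose by 0.71 in the second period (SE 0.19, limma adjusted *P* = 0.00246), but its level at the middle stage was measured on 4 of 9 arrays and the change was −0.073 under normexp. HSPB11 was not called, with 0.28, 0.07 and 0.35 (SE 0.13 each).

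HSF1 was at 5.49 to 5.94 (median 5.76) at the early stage, 5.79 to 6.76 (median 6.18) at the middle stage and 5.78 to 6.02 (median 5.98) at the late stage. The stages overlapped, and 8 of 9 cattle were higher at the middle than at the early stage. It rose by 0.47 (SE 0.12, limma adjusted *P* = 0.00214), which turned to −0.14 under normexp, and then changed by −0.24 (adjusted *P* = 0.0746). HSF2 was not called, with −0.11, 0.43 and 0.32 (SE 0.21 each). Of 10 genes of the heat-inducible set on the array, 3 were higher and 2 lower in the first period, beside 45.3% and 21.2% of all probes, and 3 higher and 5 lower in the second, beside 26.7% and 44.8%. Their median changes were 0.08 and −0.07. HSPA6, one of the 10, was well above background on 2 arrays only, and the other 9 were so on all 27. Probes measured as often as these 9 gave 34.9% higher and 26.9% lower in the first period and 37.4% and 30.7% in the second.

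HSPBP1, which promotes nucleotide release from HSP70 and inhibits its action, was at 4.86 to 5.40 (median 5.15), 5.50 to 6.10 (median 5.73) and 4.53 to 5.35 (median 4.86). The middle stage did not overlap either of the others. It rose by 0.64 (SE 0.12, limma adjusted *P* = 1.43e-04) and changed by −0.88 (adjusted *P* = 3.05e-06), and both calls were lost under normexp, with 0.21 and −0.22. HSPBAP1, a binding partner of HSPB1, rose by 0.64 over the total period (SE 0.13, limma adjusted *P* = 0.0018), from −0.91 to −0.28 at the early stage to −0.17 to 0.26 at the late stage, with no overlap and in 9 of 9 cattle.

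The changes of functional partners were also set against each other on the same array, where centering of the array cancels. The 7 pairs were chosen after the values of the genes had been seen, so they are described without a test. The log2 ratio of HSPD1 to HSPA9, both of the mitochondrial matrix, rose by 2.42 ± 0.72 in the first period (SD, n = 8), in 8 of 8 cattle. It changed by −1.87 ± 0.88 in the second, lower in 8 of 8. Under the 6 scalings the first value was 1.82 to 2.41, and it was 2.68 within slide 2 and 2.07 when slides were a fixed block.

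The ratio of HSPD1 to its lid HSPE1 changed by 0.95 ± 0.56 (SD, n = 8) in the first period, higher in 8 of 8 cattle, and by −1.21 ± 0.74 in the second, lower in 7 of 8. Within slide 2 the first value was 1.21, and it was 0.70 when slides were a fixed block. For the inducible over the constitutive HSP70, HSPA1A to HSPA8, the change was −0.70 ± 0.87 (SD, n = 9) and then 1.27 ± 0.61, the latter higher in 9 of 9 cattle. Modelling slides as a fixed block turned the first to 0.84, and it was −0.12 within slide 2.

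The ratio of HSPA4L to HSPA4 changed by 0.81 ± 0.43 (SD, n = 9) and −0.83 ± 0.59, in 9 of 9 cattle each. The first was 0.04 when slides were a fixed block and 1.06 within slide 2. That of HSPB6 to HSPB8 changed by 1.94 ± 1.70 and −1.30 ± 1.58, with animal 4 at 6.12 and −5.18. The first was 0.11 when slides were a fixed block and 1.34 within slide 2. The ratio of HSPA5 to HSP90B1 changed by −0.40 ± 0.82, lower in 8 of 9 cattle, and 0.73 ± 0.80, higher in 7 of 9. That of HSP90AA1 to HSP90AB1 changed by −0.15 ± 0.67, lower in 5 of 9, and −0.19 ± 0.60, lower in 8 of 9. These SDs were larger than the size of the means, as for HSPA1A to HSPA8 in the first and HSPB6 to HSPB8 in the second period. The first-period value of HSP90AA1 to HSP90AB1 turned to 0.66 when slides were a fixed block and was −0.15 within slide 2. For HSPA5 to HSP90B1 these values were −0.51 and −0.34.

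**Figure D4:**
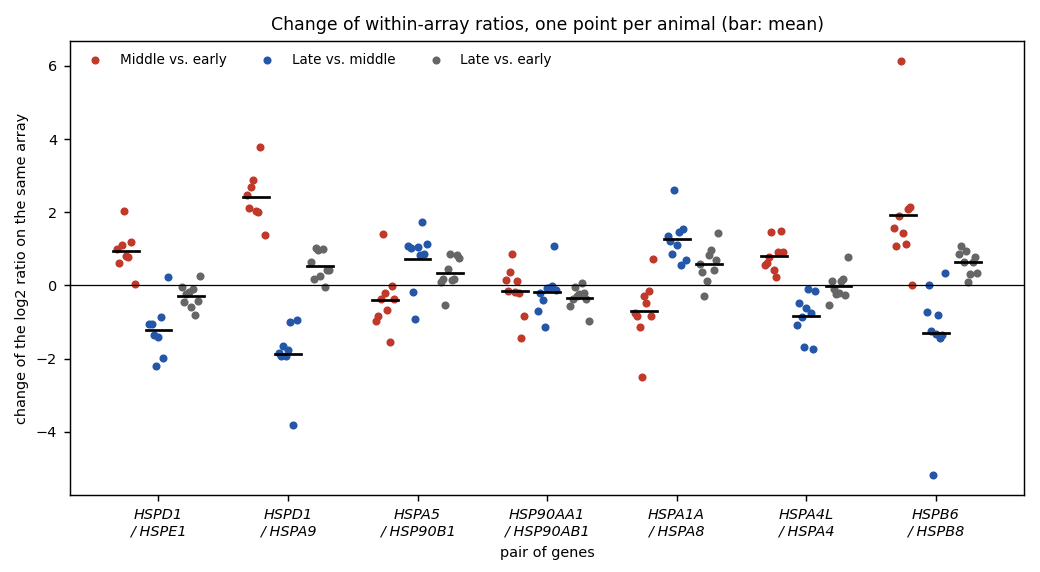
Change of the log2 ratio of 7 pairs of genes on the same array (vertical axis), with 1 point per animal and a black bar for the mean, for the 3 comparisons. Ratios of HSPD1 to HSPA9 rise in 8 of 8 cattle in the first period, by 1.38 to 3.78, and HSPB6 to HSPB8 has 1 value of 6.12 from animal 4.

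The way of scaling the arrays changed the sign of part of the calls. Of the 18 genes called in the first period, 8 had the same direction and call under all 6 scalings, HSPA13 and HSPA4L higher and HSPA14, HSPA1A, HSPA2, HSPA5, HSPA9 and HSPB8 lower. Of the 21 called in the second period 8 did so, 5 higher and 3 lower, and of the 4 over the total period HSPBAP1 and HSPA12B did. The sign was opposite under at least 1 scaling for 7 of the 18, 9 of the 21 and 0 of the 4.

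First-period calls depended on how slides entered the model. The median SE was 0.67 for slides as a fixed block and 0.54 within slide 2, against 0.19 without them. Within slide 2, where 1 early-stage array stood beside 7 middle-stage arrays, 26 of the 30 genes had the same direction. With slides as a fixed block limma called HSPA14 lower, at −2.39, and HSPA4 higher, at 1.56, where 1255 of all 15008 probes were called. In that fit 10 genes reached an unadjusted *P* below 0.05 and 19 had the same direction. HSPB8, HSPA1A and HSPA2 turned to 0.61, 0.29 and 0.68, none of them called, while HSPA9 was at −0.86, HSPA13 at 1.38, HSPA4L at 1.60 and HSPD1 at 1.22, not called either. With slides as a random block 6830 of all 15008 probes were called. Of the 18 first-period calls 11 were kept, HSPA9 and HSPA14 lower, with −1.35 and −0.87, and 9 genes higher. Among these 9 were HSPA12A and HSPB3, which were above background on no array.

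**Figure D5:**
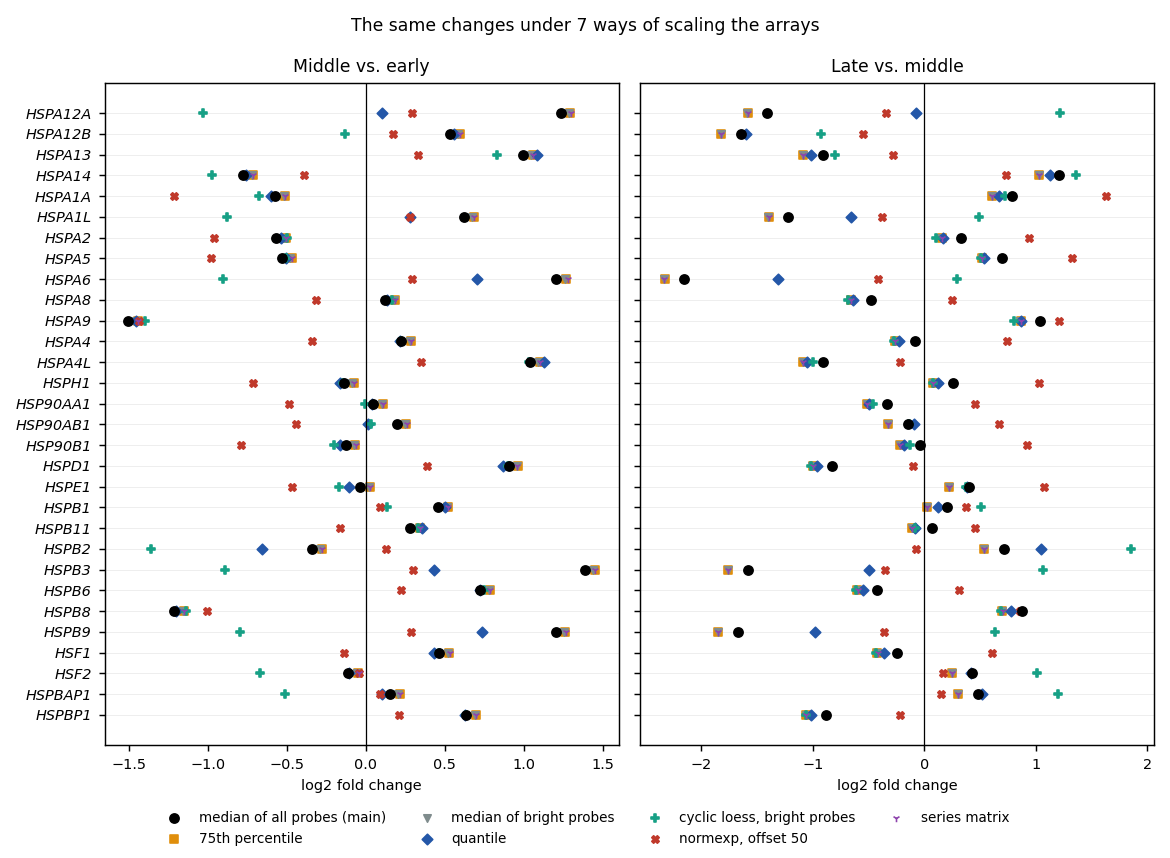
Log2 fold change (horizontal axis) of the 30 genes in the first and second periods under 7 ways of scaling the arrays, with 1 marker per scaling. The markers of HSPA9 stay left of 0 in the first period and right of it in the second, whereas those of the 5 genes at background fall on both sides.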

How the data were processed

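RNA of 27 RE biopsies was measured on one-color 60-base arrays. The authors extracted it with TRIzol, labeled it with cyanine 3 and read the arrays with Agilent Feature Extraction (version 9.5 in the labels, 11.0.1.1 in the file headers), whose deposited intensity values have local background subtracted. The deposited 0 or 1 calls of well above background, saturation and outlier spots were used as given. The authors' deposited log2 table is close to the log2 signal minus the 75th percentile of each array and served as an alternative.

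Analysis used R 4.3.3, limma 3.58.1 and statmod 1.5.0. The median log2 signal of each array was subtracted, outlier spots were left missing and 15008 probes were fitted with a mean per stage and the animal as a block. Arrays were paired by the running number in their titles, which was taken as the animal, since the same 9 cattle were sampled. The mean correlation of deviations in such pairs was 0.158, above 0 in 24 of 27 pairs and −0.15 at the lowest. Calls needed an adjusted *P* below 0.05, and counts with at least 2-fold changes are given too. The procedure was tested on simulated data.

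Members and gene lists were chosen with earlier results of these data known. Genes described by name were a fixed set, the 5 largest rises and falls per comparison among called genes that passed the background limit on all 9 arrays of at least 1 of the stages compared, those called in all comparisons and, to account for every member, the remaining 6. Genes of related lists are the 2 most raised and 2 most lowered (or fewer) called in the first period. Here the fixed rule had no background limit, and one on all 9 early-stage or middle-stage arrays was added, which left out CDC37L1, CRYAA and MANF, all called higher. Alternatives were 6 scalings, a filter on dim probes, keeping outlier spots, no animal block, slide as a block, slide 2 alone, the methods' t-test and each animal left out. Further alternatives, scan day as a random block and the arrays scanned on the first day, were chosen after seeing the data. Arrays have no read depth, and precision is limited by 9 arrays a stage.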

Additional observations from a re-analysis of the deposited data

Results flagged for a closer look

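In 72 groups of 9 arrays, 1 for each of 24 genes at each stage, 11 held an array far from the others. HSPD1 had 8 values at the middle stage. For a single group chance gives about 1 in 20. The 24 genes were read on the same 27 arrays, so the groups are not independent and 11 of 72 cannot be set against that rate. The level of animal 4 at the middle stage was apart for HSP90B1 at 6.81, HSPA4L at 3.33, HSPB6 at 6.10 and HSPB8 at −0.49. That of animal 8 at the middle stage was apart for HSP90AA1 at 7.21 and HSPA4 at 5.19. At the late stage animal 1 was apart for HSPA4L at 1.21, HSPA8 at 3.30 and HSPB1 at −0.55, animal 6 for HSPA5 at 5.75 and animal 4 for HSPB2 at −1.50. The middle-stage array of animal 4 had the lowest median signal of the 27 arrays, 8.22, with 56.5% of spots well above background, and that of animal 8 had 55.4% of spots above it, and the part of this in the values was not tested. All values are log2 levels relative to the array median.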

How the results depend on the processing

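Without the replicate block the counts of DEGs were unchanged, with 12 and 6, 8 and 13, and 2 and 2 genes higher and lower in the 3 comparisons. Of all 15008 probes 9698, 10484 and 2729 were called there. Numbers of all probes called stand beside the other counts, since these shift with the setting too. The cyclic loess gave 7 higher and 12 lower in the first period, 13 higher in the second and 4 lower over the total period. It called 10727, 11428 and 2568 of all probes. Normexp gave 15 higher and 8 lower in the second and 1 lower over the total period, beside 11894 and 1195 of all probes called. The slide as a random block left 2 lower in the first, 3 higher in the second and 0 higher and 0 lower over the total period. Of all probes 6830, 7508 and 248 were called in that fit. The slide as a fixed block gave 1 and 1 in the first period, beside 1255 of all probes. Slide 2 alone, with 1 early-stage array, is described by its changes only. Scan day as a random block gave 3 higher in the second and 0 and 0 over the total period, beside 6892 and 168 of all probes. The methods' t-test called 3 lower in the first period and 6 higher and 5 lower over the total period, beside 8901 and 4465 of all probes. Without dim probes 8 were lower in the second and 4 higher over the total period, beside 6883 and 2852 of the 10165 probes kept. Over the total period 75th percentile scaling gave 1 higher and 4 lower, the median of bright probes and the series matrix values each 1 higher and 5 lower, and quantile normalization 5 lower. In that order these 4 settings called 2913, 2934, 2920 and 2160 of all probes. With each animal left out, 11 to 13 were higher and 4 to 6 lower in the first period, 7 to 9 and 13 to 14 in the second, and 1 to 3 and 1 to 3 over the total period. Of all probes 9386 to 9858, 10320 to 10680 and 2230 to 3064 were called in these fits.

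Cyclic loess turned the first-period changes of HSPA12A to −1.03, HSPA12B to −0.13, HSPA1L to −0.88, HSPA6 to −0.91, HSPB3 to −0.89, HSPB9 to −0.80 and VBP1 to −0.75. It turned the second-period changes of HSPA12A to 1.22, HSPA1L to 0.50, HSPA6 to 0.29, HSPB3 to 1.06, HSPB9 to 0.64 and VBP1 to 0.37. Normexp turned HSF1 to −0.14, STIP1 to −0.090, TIMM44 to −0.0022, LONP1 to −0.051 and CLU to −0.24 in the first period. In the second it turned HSP90AA1 to 0.45, HSPA8 to 0.25, HSPB2 to −0.073, HSPB6 to 0.31, STIP1 to 0.30, LONP1 to 0.38 and HSBP1 to 0.31. The slide as a fixed block turned HSPA1A to 0.29, HSPA1L to −1.20, HSPA2 to 0.68, HSPA6 to −2.31, HSPB8 to 0.61, AFG3L2 to 0.28 and UBB to 0.18 in the first period, and slide 2 alone turned HSPB3 to −0.024. The cause was not tested. In the other comparisons a fixed slide could not be fitted, and no gene had another probe to use. Signal over background limits the middle stage most.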

Other observations

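Genes that work beside the heat shock proteins were read from the same fit. Of 23 other genes of ER folding and the unfolded protein response, 6 were higher and 12 lower in the first period, where 45.3% and 21.2% of all probes were. In the second 13 were higher and 7 lower, where 26.7% and 44.8% were. Their median log2 fold changes were −0.39 and 0.41, and those of all probes 0.33 and −0.28. However, 17 of the 23 were well above background on all 27 arrays. Among all probes measured as often, 34.9% were higher and 26.9% lower in the first period and 37.4% and 30.7% in the second. The medians of those probes were 0.08 and 0.09. HERPUD1, a component of ER-associated degradation, changed by −1.73 (SE 0.13) and 1.74, and PPIB, a prolyl isomerase of the ER, by −1.46 (SE 0.17) and 1.56. The disulfide isomerase PDIA4 changed by 1.21 (SE 0.19) and −1.42 and DDIT3, a transcription factor of ER stress, by 1.28 (SE 0.20) and −1.09. These 4 genes kept their direction under all 6 scalings.

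Of 15 subunits of the cytosolic chaperonin and prefoldin 4 were higher and 6 lower in the first period, beside 45.3% and 21.2% of all probes. In the second 9 were higher and 3 lower, beside 26.7% and 44.8%. Here 13 of the 15 were well above background on all arrays. Probes measured as often gave 34.9% and 26.9% in the first period and 37.4% and 30.7% in the second. CCT7, a chaperonin subunit, changed by −1.70 (SE 0.15) and 1.76 and PFDN1, a prefoldin subunit, by −1.08 (SE 0.25) and 1.30, whereas the prefoldin subunit PFDN5 changed by 0.74 (SE 0.15) and −1.27 and VBP1 by 0.54 (SE 0.22) and −1.09. Without animal 4 the first value of VBP1 was 0.32.

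Of 23 cochaperones of HSP70 and HSP90 4 were higher and 6 lower in the first period, with 45.3% and 21.2% over all probes. In the second 7 were higher and 7 lower, with 26.7% and 44.8%. Here 14 of the 23 were well above background on all arrays. Probes measured as often gave 34.9% and 26.9% in the first period and 37.4% and 30.7% in the second. BAG4 changed by −1.31 (SE 0.17) and 1.21, with a middle-stage signal above background on 5 of 9 arrays, and TTC1 by −1.23 (SE 0.16) and 1.62. The HSP90 cochaperone PTGES3 (p23) changed by 0.85 (SE 0.12) and −1.48, and STIP1 (HOP), which links HSP70 and HSP90, by 0.50 (SE 0.17) and −0.40, the latter −0.26 without animal 4.

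Of 12 genes of mitochondrial import, folding and proteolysis 3 were higher and 6 lower in the first period, where all probes gave 45.3% and 21.2%. In the second 9 were higher and 1 lower, where all probes gave 26.7% and 44.8%. All 12 were well above background on all arrays. Probes measured as often gave 34.9% and 26.9% in the first period and 37.4% and 30.7% in the second. The inner membrane proteases YME1L1 and AFG3L2 changed by −1.34 (SE 0.16) and −0.85 (SE 0.17) and then by 1.83 and 0.86. The matrix protease LONP1 changed by 0.46 (SE 0.14) and −0.37, and TIMM44, which tethers HSPA9 to the import channel, by 0.45 (SE 0.11) and −0.06, the last of these not called. Among 8 other heat shock genes 3 were higher and 1 lower in the first period, beside 45.3% and 21.2% of all probes. In the second 3 were higher and 3 lower, beside 26.7% and 44.8%. Over the total period 4 were higher and 0 lower, beside 11.0% and 9.01%. Here 7 of the 8 were well above background on all arrays. Probes measured as often gave 34.9% and 26.9%, 37.4% and 30.7%, and 17.6% and 7.99% in the 3 comparisons. HSBP1, a negative regulator of HSF1, changed by 0.58 (SE 0.11) and −0.39, the secreted chaperone CLU by 0.36 (SE 0.14) in the first period, with 0.26 and no call in the second, and the ubiquitin gene UBB by −0.27 (SE 0.10) and 0.63.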
